A study of Mus musculus with 80 samples.

Results

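The proteasome genes described here are the 41 subunits, activators and maturation factors named in a list of gene symbols. All 41 had a row in the deposited table of 22103 genes, and 41 of 41 passed the filter on low counts that left 15197 genes for testing. They comprise the 14 genes of the constitutive 20S core (7 of the alpha ring and 7 of the beta ring), 3 immunoproteasome beta subunits, 19 genes of the 19S cap (6 ATPases and 13 others), 4 genes of other activators and the maturation factor Pomp.

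Liver RNA came from female Balb-C mice aged 10 to 12 weeks that received PFESA-BP2 by gavage for 7 days. This compound, known as Nafion byproduct 2, belongs to the perfluorinated ether sulfonic acids. A control group at 0 mg/kg-day stood beside treated groups at 0.03 mg/kg-day, at 0.3 mg/kg-day, at 3.0 mg/kg-day and at 6.0 mg/kg-day, each of 4 individual mice with 1 library apiece. Strain, sex, age and route were common to the groups, and the vehicle is unsettled, since the control titles name DMSO and the design text names deionized water.

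The proteasome degrades proteins that have been tagged with ubiquitin. The barrel-shaped 20S core holds the proteolytic sites inside stacked rings of alpha and beta subunits, while the 19S cap binds ubiquitin chains, removes them, and unfolds and feeds in the substrate through a ring of ATPases. Cells exposed to interferon exchange the catalytic beta subunits for immunoproteasome counterparts, and in liver the constitutive form is the usual one in hepatocytes.

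Total counts per library lay between 13086779 and 21467012. Levels are given as CPM, the depth-scaled count on TMM-scaled library totals, as the mean ± SD over the 4 mice of a group. Changes are log2 fold changes with their standard error (SE), and the words rose and fell are kept for an adjusted p under 0.05 in edgeR's quasi-likelihood test over 15197 genes. The overall profiles of libraries 3, 11, 15, 19 and 23, 1 in each group, stood apart from those of the other mice of their groups. The labels give no batch for them. Values are printed in the order of the library numbers, so that the third value of each group belongs to the library that stood apart. The difference between these libraries and the rest of their groups ran from -1.01 for Adrm1 to 0.75 for Psmd7 on the log2 scale over the 41 proteasome genes, with a median of -0.22. It was -0.97 for Pomp, -0.91 for Psmd6, -0.89 for Psma6, -0.86 for Psmb5 and 0.65 for Psme4. Results are therefore also given without these libraries where the count moved.

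The 20S core and the 19S cap were both higher at 6.0 mg/kg-day, and the immunoproteasome subunits were not. At that dose 24 of the 41 proteasome genes rose and 0 fell, while 11.2% of all tested genes rose and 11.2% fell. By class, 11 of the 14 genes of the 20S core rose, as did 12 of the 19 genes of the 19S cap, 1 of the 4 genes of other activators, 0 of the 3 immunoproteasome genes and not Pomp. The median log2 fold change was 0.56 for the 20S core, 0.55 for the 19S cap, 0.16 for the activators and -0.20 for the immunoproteasome genes, against -0.02 for all tested genes. In 14 of the 41 genes each of the 4 treated mice was above each of the 4 controls, against 9.68% of all tested genes.

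The count of 24 depended on the libraries used. It was 16 without library 22, the highest of the 6.0 mg/kg-day mice for 29 of the 41 genes (8.22% of all tested genes then rose). It was 32 without the 5 libraries that stood apart (17.8%), 34 with a term for them in the fit (18.4%), and 11 when the control and 6.0 mg/kg-day mice were fitted alone (6.95%). The 16 genes that rose without library 22 also rose in each of the 8 fits that left out 1 control or 1 mouse of that dose. They were Psma1, Psma4, Psma5, Psma7, Psmb1, Psmb3, Psmb4, Psmc2, Psmc4, Psmd1, Psmd2, Psmd4, Psmd8, Psmd12, Psmd13 and Psmd14. The other 8 that rose, namely Psma2, Psma3, Psmb5, Psmb7, Psmc1, Psmc3, Psmc5 and Psme1, did not pass without library 22. The plot of log2 fold changes by class sets the genes side by side.

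**Figure D1:**
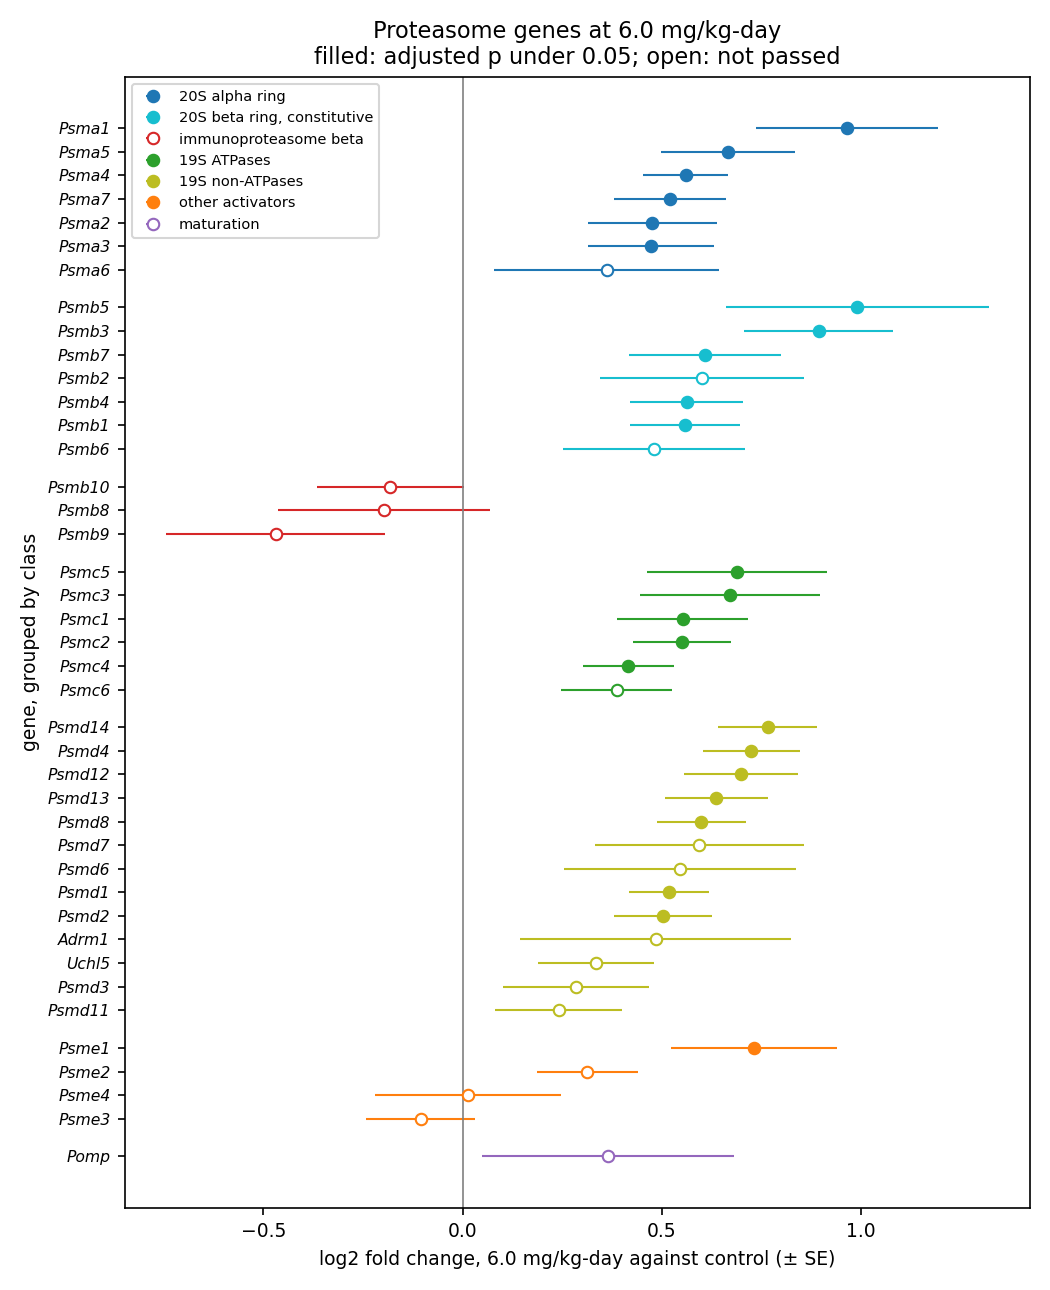
Log2 fold change of each of the 41 proteasome genes at 6.0 mg/kg-day against control (horizontal axis), grouped by class, with bars of 1 SE from edgeR; filled points passed at an adjusted p under 0.05. The 20S and 19S genes lie to the right of 0, from 0.24 for Psmd11 to 0.99 for Psmb5, and the 3 immunoproteasome genes lie to the left, from -0.47 to -0.18.

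Other cell types and states were read from marker lists, since in whole liver fewer cells of a type and less RNA per cell cannot be told apart. At 6.0 mg/kg-day 4 of 10 hepatocyte markers fell and 0 rose, where 11.2% of all tested genes fell and 11.2% rose. The summed level of these markers was 130348 to 177010 CPM in controls, 129091 to 165901 at 0.03, 138659 to 151798 at 0.3, 96598 to 128984 at 3.0 and 84442 to 115647 at 6.0 mg/kg-day. Of 5 cycling-cell markers 5 rose, with sums of 7.82 to 10.3, 6.81 to 11.1, 11.2 to 13.7, 35.6 to 68.3 and 87.4 to 222 CPM in the same order. Library 22 held the highest T and NK cell sum, 164 CPM, where the other 6.0 mg/kg-day libraries had at most 15.3 CPM, the controls 5.42 to 7.97 CPM, and the groups between 5.12 and 8.47 CPM. Of the 8 markers in that list 5 were tested and 3 rose, and Cd8a and Nkg7 were at 0 in at least 1 library. The leukocyte sum was 115 CPM in library 22, at most 38.8 CPM in the other mice of that dose, 31.6 to 40.8 CPM in controls and 28.6 to 35.8 CPM in the groups between. Of its 6 markers 5 were tested, of which 1 rose and 1 fell. Library 22 was also the highest of its dose for Kupffer cell markers (484 CPM, controls 279 to 339). The same held for neutrophil and monocyte markers (146 CPM, controls 71.9 to 98.2), cycling-cell markers (222 CPM) and B cell markers (3.83 CPM). It was not the highest of its dose for dendritic, sinusoidal endothelial, stellate, cholangiocyte or hepatocyte markers. The part of these cells in the proteasome levels was not tested. Without library 22 the median log2 fold change was 0.45 for the 20S core and 0.50 for the 19S cap. It was then 0.14 for the activators and -0.40 for the immunoproteasome genes, of which 0 passed.

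Summed over its 14 genes, the 20S core stood at 922 ± 83.4 CPM in controls, 835 ± 47.9 at 0.03, 841 ± 33.3 at 0.3, 1138 ± 66.4 at 3.0 and 1437 ± 351 at 6.0 mg/kg-day (SD, n = 4). Individual sums were 967, 1016, 869.9 and 836 CPM in controls and 1524, 1869.6, 1037 and 1317 CPM at 6.0 mg/kg-day. The groups did not overlap, but library 23 was close to the highest control while library 22 was far above it. Over the 19 genes of the 19S cap the sums were 1439 ± 125, 1436 ± 89.0, 1525 ± 99.3, 1755 ± 101 and 2077 ± 96.9 CPM in the same order. The individual 19S sums were 1555, 1539.7, 1322 and 1340.2 CPM in controls and 2001, 2219, 2053 and 2036 CPM at 6.0 mg/kg-day, so that the sums of the 4 treated mice lay close together. Single 19S genes did not all do so. At that dose Psmd7 was at 113, 109, 183 and 97.3 CPM, highest in library 23, and Psmd6 at 115, 135, 59.3 and 104 CPM, lowest there. Relative to control, the means at 6.0 mg/kg-day were 156% for the 20S core, 144% for the 19S cap, 112% for the activators and 84.4% for the immunoproteasome genes. These sums weight the abundant transcripts most and carry no test of their own.

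**Figure D2:**
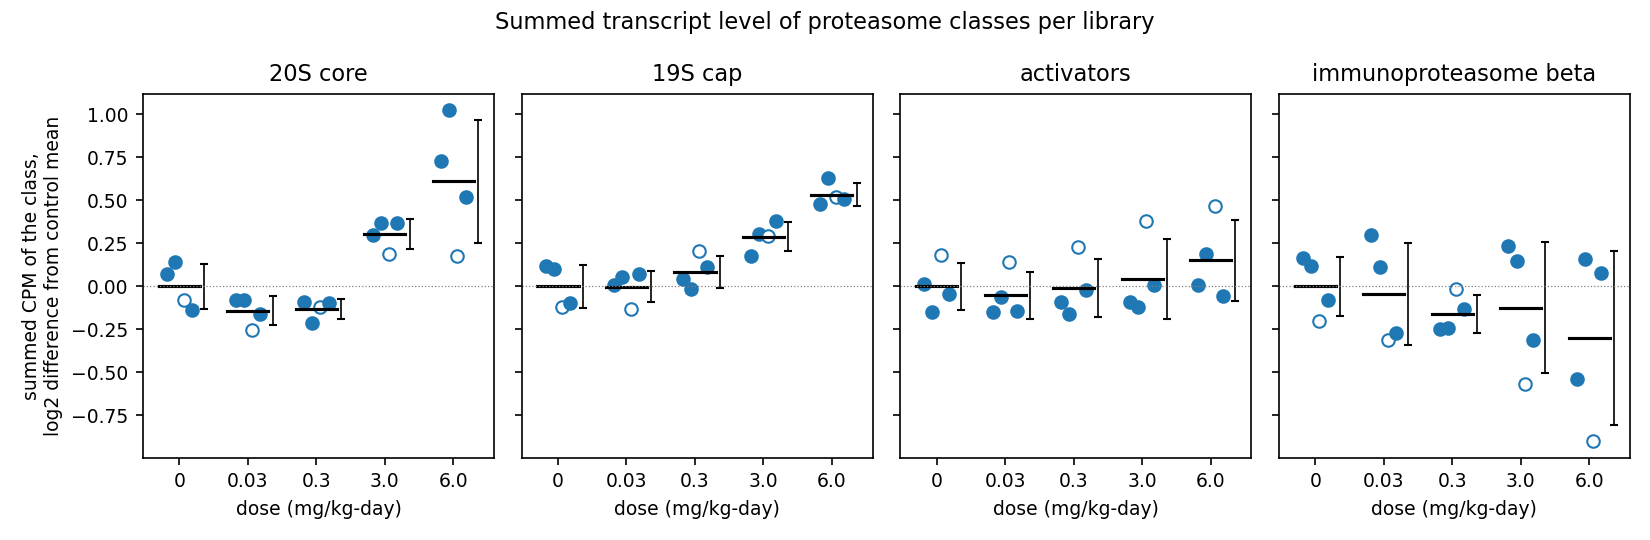
Summed CPM of 4 proteasome classes in each of the 20 libraries, as the log2 difference from the control mean (vertical axis) by dose in mg/kg-day; lines are means, bars SDs over 4 mice, and open points the libraries that stood apart. At 6.0 mg/kg-day the 19S sums lie between 0.48 and 0.63, the 20S sums between 0.17 and 1.02, and the immunoproteasome sums between -0.90 and 0.16.

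The promoters of some members carry motifs that are often discussed for proteasome genes. A RefSeq window from 250 bases before to 50 bases after the start (GRCm38.p6) was found for 35 of the 41 genes. The motifs searched, on both strands, were the core of the antioxidant response element, TGACNNNGC, the interferon-stimulated element, which is GAAA repeated after 2 bases of any kind, and the CCAAT box. A match of the first and of the second type is shown for a 20S and a 19S gene, with the match in capitals, since these genes rose at 6.0 mg/kg-day and are described below. The 4 stretches lie upstream of the RefSeq start and are written on the strand of the gene, while the matches in Psmd12, Psmb3 and Psmd4 read on the opposite strand.
Psmb5, chr14:54618014-54618062, minus strand, antioxidant response element core: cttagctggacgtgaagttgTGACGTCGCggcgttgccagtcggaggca
Psmd12, chr11:107479278-107479309, plus strand, antioxidant response element core: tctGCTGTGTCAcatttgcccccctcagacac
Psmb3, chr11:97703251-97703300, plus strand, interferon-stimulated element: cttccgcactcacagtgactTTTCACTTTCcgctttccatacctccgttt
Psmd4, chr3:95042665-95042714, minus strand, interferon-stimulated element: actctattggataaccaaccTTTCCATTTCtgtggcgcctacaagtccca
Shares are of genes with a window, and a gene was counted if any of its windows held a match. The first motif was present in 7 of the 35 genes (20%), against 14% of all 27025 genes. It was in 16.9% of the tested genes and in 19.1% of all genes that rose at 6.0 mg/kg-day. Among the 21 risen members with a window 2 held it (9.52%), as did 5 of the 14 that did not pass (35.7%). The interferon-stimulated motif was in 3 of 35 (8.57%, against 3.99% of all genes and 3.88% of those tested) and in 0 of the 3 immunoproteasome genes. All 3 were among the 21 risen members (14.3%, against 3.5% of all genes that rose), and 0 among the 14 that did not pass. CCAAT was in 13 of 35 (37.1%, against 41.1% and 43.1%), with 5 of them among the 7 alpha-ring genes. It was in 9 of the 21 risen members (42.9%, against 48.5% of all genes that rose) and in 4 of the 14 others (28.6%). A match describes letters in a window of this length and shows neither binding nor its absence.

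In the alpha ring, which forms the outer gate of the core, 6 of 7 genes rose at 6.0 mg/kg-day. Psma1 (chr7:114264606-114276118, GRCm38) was measured at 89.4, 108, 76.5 and 78.3 CPM in the control mice and 195, 255, 95.1 and 141 CPM at 6.0 mg/kg-day. Between these it was at 88.4, 90.9, 71.3 and 106 CPM at 0.03, 102, 102, 73.5 and 111 CPM at 0.3 and 125, 151, 102 and 153 CPM at 3.0 mg/kg-day. Library 23 lay inside the control range and the other 3 treated mice lay above it, so the groups overlapped. The mean went from 87.9 ± 14.3 to 172 ± 69.2 CPM, a log2 fold change of 0.96 ± 0.23 (SE) with an adjusted p of 0.00433. Psma4 stood at 106, 102, 84.8 and 88.8 CPM in the control mice and 136, 167, 134 and 125 CPM at 6.0 mg/kg-day. Its values were 90.3, 79.6, 76.5 and 76.5 CPM at 0.03, 84.2, 74.9, 88.8 and 85.5 CPM at 0.3 and 108, 110.0, 112 and 109 CPM at 3.0 mg/kg-day. At 3.0 and at 6.0 mg/kg-day each treated mouse was above each control, and the mice at the lower doses were each below the control mean. Its change of 0.56 ± 0.11 had the smallest adjusted p of the ring, 0.000662. Psma5 was at 17.2, 18.9, 17.0 and 18.3 CPM in the control mice and 31.1, 39.2, 20.4 and 22.7 CPM at 6.0 mg/kg-day. Other groups gave 15.7, 16.3, 15.7 and 14.9 CPM at 0.03, 17.0, 15.1, 11.6 and 17.1 CPM at 0.3 and 27.2, 24.1, 20.5 and 23.7 CPM at 3.0 mg/kg-day for Psma5. Again the mice at 3.0 and at 6.0 mg/kg-day were above the controls, while those at 0.03 mg/kg-day were below them. Psma5 changed by 0.67 ± 0.17 at 6.0 mg/kg-day (adjusted p = 0.00674). Of the remaining 4 genes, Psma7 rose by 0.52, Psma2 by 0.48 and Psma3 by 0.47, with adjusted p of 0.0105, 0.0398 and 0.0368. Psma6 had a log2 fold change of 0.36 and did not pass (adjusted p = 0.39). Without the 5 libraries that stood apart it passed.

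The constitutive beta ring holds the 3 proteolytic subunits, Psmb6 with caspase-like, Psmb7 with trypsin-like and Psmb5 with chymotrypsin-like activity, and 5 of its 7 genes rose. Psmb5 (chr14:54614119-54618022) was at 16.1, 15.9, 7.90 and 8.73 CPM in the control mice and 22.1, 35.4, 12.1 and 27.3 CPM at 6.0 mg/kg-day. At the other doses Psmb5 was at 13.6, 13.0, 4.97 and 12.3 CPM at 0.03, 11.0, 12.1, 9.96 and 8.84 CPM at 0.3 and 20.0, 19.1, 9.47 and 16.2 CPM at 3.0 mg/kg-day. The third library was the lowest or next to lowest in each group, and at 6.0 mg/kg-day it lay within the control range while the others lay above. Its log2 fold change of 0.99 ± 0.33 was the highest of the 41 genes, with an adjusted p of 0.0356. Psmb7 read 166, 181, 244 and 133 CPM in the control mice and 305, 364, 179 and 256 CPM at 6.0 mg/kg-day. In the middle groups Psmb7 read 163, 169, 199 and 153 CPM at 0.03, 158, 147, 213 and 168 CPM at 0.3 and 214, 229, 206 and 235 CPM at 3.0 mg/kg-day. Libraries 3 and 23 went against their groups, the first being the highest control and the second within the control range. Psmb7 rose by 0.61 ± 0.19 (adjusted p = 0.0259). Psmb6 gave 56.9, 64.7, 30.2 and 48.0 CPM in the control mice and 69.8, 88.0, 41.9 and 79.3 CPM at 6.0 mg/kg-day. It gave 49.3, 45.1, 28.5 and 40.2 CPM at 0.03, 40.7, 37.5, 33.6 and 39.8 CPM at 0.3 and 55.1, 63.2, 41.4 and 57.7 CPM at 3.0 mg/kg-day. The groups overlapped through library 23, and Psmb6 did not pass, with a change of 0.48 ± 0.23 and an adjusted p of 0.14. It passed without the 5 libraries that stood apart.

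Among the beta subunits without a proteolytic site, Psmb3 was at 97.2, 111, 84.6 and 91.6 CPM in the control mice and 204, 257, 109.6 and 144 CPM at 6.0 mg/kg-day. Elsewhere Psmb3 was at 103, 105, 81.4 and 102 CPM at 0.03, 101, 95.1, 101 and 97.9 CPM at 0.3 and 125, 149, 111 and 149 CPM at 3.0 mg/kg-day. Only library 23, just below the highest control, kept the groups from separating, and the mice at 3.0 mg/kg-day were above the controls. Psmb3 rose by 0.89 ± 0.19 (adjusted p = 0.00159). Psmb4 was measured at 109, 117, 110.4 and 106 CPM in the control mice and 152, 174, 176 and 150.3 CPM at 6.0 mg/kg-day. The middle doses gave Psmb4 values of 89.3, 95.6, 105 and 82.8 CPM at 0.03, 93.0, 78.1, 122 and 85.8 CPM at 0.3 and 123, 118, 174 and 120.1 CPM at 3.0 mg/kg-day. Its 6.0 mg/kg-day mice were close together and above the controls, and its 0.03 mg/kg-day mice were below them. The change was 0.56 ± 0.14 with an adjusted p of 0.00681. Psmb1 was at 78.7, 82.9, 60.7 and 67.2 CPM in the control mice and 118, 131, 83.4 and 94.3 CPM at 6.0 mg/kg-day. For Psmb1 the remaining values were 69.2, 72.3, 56.6 and 62.0 CPM at 0.03, 70.3, 61.1, 55.3 and 67.3 CPM at 0.3 and 88.8, 89.0, 83.5 and 87.3 CPM at 3.0 mg/kg-day. Treated mice at 3.0 and at 6.0 mg/kg-day were above the controls. Psmb1 rose by 0.56 ± 0.14 (adjusted p = 0.00576). Psmb2 had a log2 fold change of 0.60 ± 0.26 and did not pass, at an adjusted p of 0.0995. Without the 5 libraries that stood apart Psmb2 passed.

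In the immunoproteasome the products of Psmb8, Psmb9 and Psmb10 take the places of those of Psmb5, Psmb6 and Psmb7. By edgeR 0 of these 3 genes passed at any dose. With all 20 libraries none had an unadjusted p under 0.05 in any of the dose comparisons, and DESeq2 and limma-voom also called 0 of 3. At 6.0 mg/kg-day 1 of 3 had an unadjusted edgeR p under 0.05 without library 22, against 4266 of 15371 tested genes. The same count was found without library 24, against 4991 of 15389, and 0 passed after adjustment in either fit. Psmb8 (chr17:34197721-34201454) was at 13.3, 12.1, 8.05 and 11.0 CPM in the control mice and 8.08, 13.5, 5.41 and 11.8 CPM at 6.0 mg/kg-day. Psmb8 was at 15.7, 13.7, 8.34 and 10.1 CPM at 0.03, 11.3, 10.3, 10.8 and 11.5 CPM at 0.3 and 12.5, 13.7, 6.04 and 10.4 CPM at 3.0 mg/kg-day. The third library was the lowest in 4 of the 5 groups, and the ranges of the groups overlapped throughout. Its change at 6.0 mg/kg-day was -0.20 ± 0.27 (adjusted p = 0.642). Psmb9 (chr17:34181987-34187764) was at 5.63, 7.59, 5.07 and 5.59 CPM in the control mice and 3.67, 5.70, 1.96 and 5.89 CPM at 6.0 mg/kg-day. At intermediate doses Psmb9 was at 5.97, 5.90, 5.42 and 4.02 CPM at 0.03, 4.58, 4.47, 5.73 and 4.79 CPM at 0.3 and 7.77, 6.34, 3.75 and 4.20 CPM at 3.0 mg/kg-day. Library 23 was the lowest of the 20, and 2 of the 4 mice at 6.0 mg/kg-day were within the control range. The change was -0.47 ± 0.27 (adjusted p = 0.239). Psmb10 was at 12.9, 11.0, 11.6 and 10.3 CPM in the control mice and 7.77, 12.5, 7.83 and 12.2 CPM at 6.0 mg/kg-day. It was at 13.2, 11.1, 9.14 and 9.41 CPM at 0.03, 7.99, 9.19, 11.6 and 9.63 CPM at 0.3 and 13.2, 11.4, 9.37 and 8.23 CPM at 3.0 mg/kg-day. The mice at 6.0 mg/kg-day formed a lower and a higher pair, the higher within the control range, and Psmb10 had a change of -0.18 ± 0.18 (adjusted p = 0.525). These are low levels next to the 20S core. In simulated counts 8 to 16 of 100 genes changed by 1.5-fold were recovered over 5 draws by edgeR and by limma-voom, and 20 to 32 by DESeq2. Those draws changed far fewer genes than passed at 6.0 mg/kg-day, which makes the adjusted p stricter. They therefore do not give the chance of a call for these 3 genes.

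Against its constitutive counterpart, each immunoproteasome gene had a lower mean ratio at 6.0 mg/kg-day, and 2 of the 3 ratios passed. The ratio also carries the change of the constitutive gene, described above. That was 0.99 for Psmb5, 0.48 for Psmb6 and 0.61 for Psmb7, beside -0.20, -0.47 and -0.18 for Psmb8, Psmb9 and Psmb10. A lower ratio therefore does not by itself show a lower immunoproteasome transcript, and 0 of those 3 genes fell. The test was run on the log2 ratio of CPM per kb of exon (exon union of GENCODE M21) by an exact permutation test of the 4 against 4 libraries. The ratio Psmb8/Psmb5 was -2.19, -2.30, -1.88 and -1.58 in controls and -3.36, -3.30, -3.07 and -3.11 at 6.0 mg/kg-day on the log2 scale. At the 3 lower doses, in rising order, the 4 log2 ratios were -1.71, -1.84, -1.17 and -2.20, then -1.87, -2.14, -1.79 and -1.53, then -2.58, -2.39, -2.56 and -2.55. All 4 mice at 6.0 mg/kg-day were below the other 16, and those at 3.0 mg/kg-day were below the controls. The difference at 6.0 mg/kg-day was -1.23 ± 0.18 (SE; exact permutation p = 0.0286, adjusted over 3 pairs 0.0429). For Psmb9/Psmb6 the log2 ratios were -4.31, -4.06, -3.54 and -4.07 in controls and -5.22, -4.92, -5.39 and -4.72 at 6.0 mg/kg-day, which did not overlap. The middle groups of this pair gave -4.01, -3.90, -3.36 and -4.29 at 0.03, -4.12, -4.04, -3.52 and -4.02 at 0.3 and -3.79, -4.28, -4.43 and -4.75 at 3.0 mg/kg-day, all ranges that overlapped the control. Its difference was -1.07 ± 0.22 (exact permutation p = 0.0286, adjusted 0.0429). Psmb10/Psmb7 gave -2.68, -3.03, -3.39 and -2.69 in controls and -4.29, -3.86, -3.51 and -3.38 at 6.0 mg/kg-day, with library 3 inside the treated range. In the other groups Psmb10/Psmb7 was -2.62, -2.92, -3.44 and -3.02 at 0.03, -3.30, -2.99, -3.20 and -3.12 at 0.3 and -3.02, -3.33, -3.45 and -3.83 at 3.0 mg/kg-day. Its difference of -0.81 ± 0.26 did not pass (exact permutation p = 0.0571, adjusted 0.0571). With 4 mice a group 0.0286 is the smallest two-sided p this test can give.

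On the linear scale the geometric mean of Psmb8/Psmb5 went from 0.252 to 0.108, that of Psmb9/Psmb6 from 0.0628 to 0.03 and that of Psmb10/Psmb7 from 0.129 to 0.0737, per kb of exon union. Per kb of the principal transcript the same ratios were 0.524 and 0.224, 0.0724 and 0.0346, and 0.057 and 0.0325, so the levels depend on the length used and the differences do not. By either length, each immunoproteasome transcript was below its counterpart in the mean of each group. Psmb9 shares 212 bases of exon with Tap1 on the opposite strand and Psmb8 shares 498 with Gm20496. Since the strand setting of the counting is not given, reads of such partners could not be told apart.

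**Figure D3:**
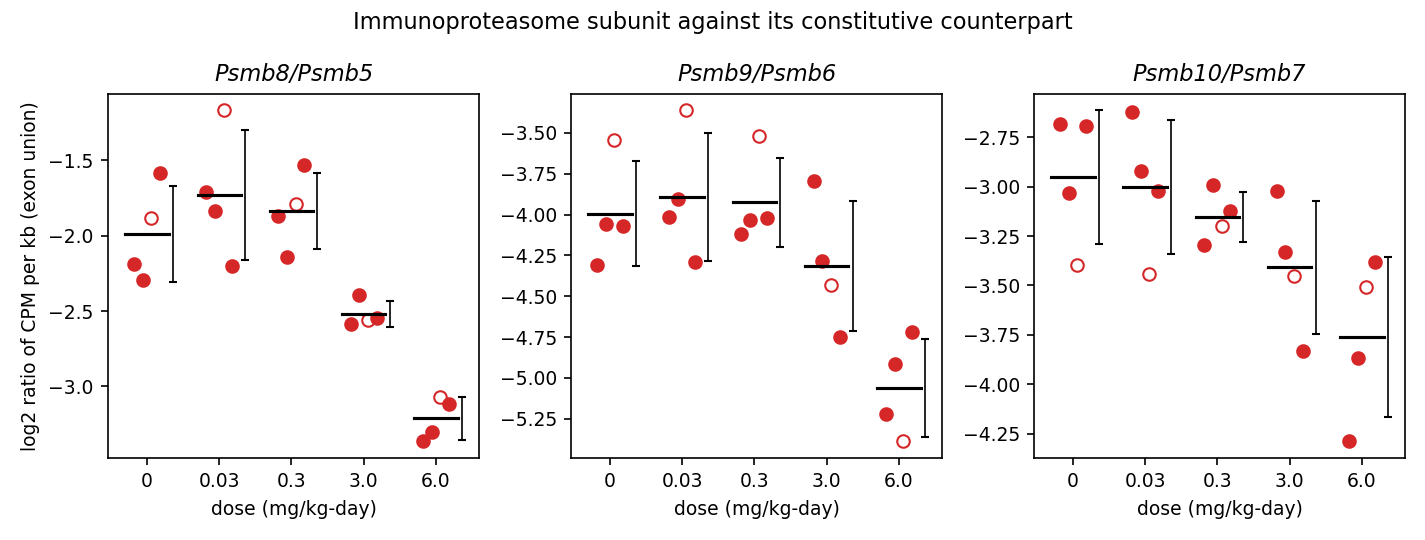
Log2 ratio of each immunoproteasome gene to its constitutive counterpart (CPM per kb of exon union, vertical axis) in the 20 libraries by dose in mg/kg-day; lines are means, bars SDs over 4 mice, open points the libraries that stood apart. Psmb8/Psmb5 goes from a control mean of -1.99 to -3.21 at 6.0 mg/kg-day with no overlap, and Psmb10/Psmb7 from -2.95 to -3.76 with overlap.

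The 6 ATPases of the 19S base form the ring that unfolds substrates, and 5 of them rose at 6.0 mg/kg-day. Psmc2 was at 68.2, 69.4, 60.8 and 58.9 CPM in the control mice and 87.5, 91.5, 108 and 89.8 CPM at 6.0 mg/kg-day. Its other groups stood at 59.8, 64.2, 59.8 and 55.9 CPM at 0.03, 59.7, 52.9, 78.5 and 57.2 CPM at 0.3 and 65.0, 73.9, 85.8 and 78.2 CPM at 3.0 mg/kg-day. The treated mice were above the controls and also above the mice at 3.0 mg/kg-day, without overlap. Psmc2 rose by 0.55 ± 0.12 (adjusted p = 0.00283). Psmc4 was at 66.8, 84.0, 62.8 and 63.5 CPM in the control mice and 85.8, 93.2, 96.6 and 94.2 CPM at 6.0 mg/kg-day. Psmc4 elsewhere stood at 60.0, 67.8, 67.1 and 67.1 CPM at 0.03, 57.2, 55.0, 69.7 and 57.7 CPM at 0.3 and 71.4, 74.3, 91.9 and 82.8 CPM at 3.0 mg/kg-day. The 6.0 mg/kg-day values were within a narrow band above the highest control, 1 of the 4 controls being well above the rest. The change was 0.42 ± 0.11 (adjusted p = 0.0121). Psmc1 was at 70.4, 72.0, 43.8 and 55.7 CPM in the control mice and 90.4, 107, 64.7 and 93.0 CPM at 6.0 mg/kg-day. Values of Psmc1 between these doses were 61.5, 61.0, 45.2 and 53.5 CPM at 0.03, 64.4, 59.3, 50.6 and 57.1 CPM at 0.3 and 76.5, 79.9, 61.7 and 70.7 CPM at 3.0 mg/kg-day. The third library was the lowest of each group, and at 6.0 mg/kg-day it lay within the control range. Psmc1 rose by 0.55 ± 0.16 (adjusted p = 0.0197). Psmc5 and Psmc3 rose by 0.69 and 0.67, at adjusted p of 0.0329 and 0.0379. Psmc6 had a change of 0.39 and an adjusted p of 0.051, just above the threshold. Without the 5 libraries that stood apart Psmc6 passed, just below it (edgeR adjusted p = 0.049).

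Of the 13 other genes of the 19S cap, 7 rose at 6.0 mg/kg-day. Psmd14 (chr2:61711694-61800376) encodes the deubiquitinase of the lid, which removes ubiquitin chains as substrates enter. It was at 78.4, 80.4, 66.5 and 61.0 CPM in the control mice and 125, 139.9, 108 and 114 CPM at 6.0 mg/kg-day. At the lower doses Psmd14 was at 74.0, 74.5, 61.5 and 88.7 CPM at 0.03, 86.5, 87.4, 79.9 and 87.0 CPM at 0.3 and 91.6, 101, 93.5 and 114 CPM at 3.0 mg/kg-day. The mice at 3.0 and at 6.0 mg/kg-day were above each control, and the mice at 6.0 overlapped those at 3.0 mg/kg-day. Psmd14 was the 1 proteasome gene that rose at 3.0 mg/kg-day (0.48 ± 0.12, adjusted p = 0.0253), and at 6.0 mg/kg-day it had the smallest adjusted p of the 41 (0.77 ± 0.12, 0.000136). Psmd4 (chr3:95032694-95042614) encodes a ubiquitin receptor. Psmd4 was at 84.9, 88.5, 59.6 and 85.9 CPM in the control mice and 129, 145, 114 and 139 CPM at 6.0 mg/kg-day. Lower doses gave Psmd4 at 75.6, 83.1, 66.0 and 73.7 CPM at 0.03, 80.2, 72.3, 82.6 and 81.3 CPM at 0.3 and 97.3, 110.2, 104 and 115 CPM at 3.0 mg/kg-day. The same separation from the controls was seen at 3.0 and at 6.0 mg/kg-day, and library 3 was far below the other controls. Psmd4 rose by 0.72 ± 0.12 at 6.0 mg/kg-day (adjusted p = 0.000192) and did not pass at 3.0 mg/kg-day (0.42 ± 0.12, 0.0526). Psmd8, a lid subunit, was at 50.4, 45.3, 60.3 and 40.5 CPM in the control mice and 72.7, 82.6, 69.8 and 72.2 CPM at 6.0 mg/kg-day. The groups between gave Psmd8 at 48.3, 49.0, 51.4 and 43.9 CPM at 0.03, 47.6, 44.7, 46.2 and 45.0 CPM at 0.3 and 52.2, 61.3, 60.7 and 60.0 CPM at 3.0 mg/kg-day. Its treated mice were above the controls and above the mice at 3.0 mg/kg-day. Psmd8 rose by 0.60 ± 0.11 (adjusted p = 0.000544).

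The lid and base subunits Psmd12, Psmd13, Psmd1 and Psmd2 rose by 0.70, 0.64, 0.52 and 0.50, with adjusted p from 0.000721 for Psmd1 to 0.00562 for Psmd2, and in each of the 4 the treated mice were above the controls. Psmd7, Psmd6, Psmd3 and Psmd11 had changes of 0.59, 0.55, 0.28 and 0.24 and did not pass (adjusted p from 0.111 to 0.305). Without the 5 libraries that stood apart Psmd7 and Psmd6 passed, and Psmd3 and Psmd11 did not. Adrm1, a ubiquitin receptor of the base, was at 13.9, 9.00, 4.02 and 8.28 CPM in the control mice and 11.9, 12.7, 6.91 and 18.0 CPM at 6.0 mg/kg-day. Adrm1 was at 10.9, 12.1, 4.97 and 9.58 CPM at 0.03, 10.9, 9.38, 5.63 and 10.2 CPM at 0.3 and 10.7, 10.6, 7.08 and 15.2 CPM at 3.0 mg/kg-day. The third library was the lowest of each group, and the ranges overlapped. Adrm1 did not pass (0.48 ± 0.34, adjusted p = 0.335). Uchl5, a deubiquitinase that Adrm1 recruits, was at 17.8, 18.3, 22.9 and 16.1 CPM in the control mice and 24.3, 27.6, 20.6 and 22.0 CPM at 6.0 mg/kg-day. Between them Uchl5 was at 15.0, 16.4, 20.7 and 17.4 CPM at 0.03, 17.7, 16.5, 24.5 and 19.0 CPM at 0.3 and 20.0, 21.8, 18.0 and 20.4 CPM at 3.0 mg/kg-day. Library 3 was the highest control and library 23 the lowest at 6.0 mg/kg-day, so that the groups overlapped. Uchl5 did not pass (0.33 ± 0.14, adjusted p = 0.105), and it passed without the 5 libraries that stood apart.

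Among the other activators, which open the core in place of the 19S cap, Psme1 rose and 3 of 4 did not pass. Psme1 and Psme2 form the interferon-inducible 11S cap. Psme1 was at 63.0, 52.0, 29.7 and 48.4 CPM in the control mice and 71.5, 99.5, 61.0 and 88.7 CPM at 6.0 mg/kg-day. At the doses between, Psme1 was at 62.8, 56.8, 35.0 and 48.7 CPM at 0.03, 55.6, 52.5, 47.4 and 48.3 CPM at 0.3 and 61.6, 72.5, 47.6 and 64.2 CPM at 3.0 mg/kg-day. Library 23 lay within the control range and the other treated mice above it. Psme1 rose by 0.73 ± 0.21 (adjusted p = 0.0151). Psme2 was at 34.4, 33.7, 23.5 and 29.6 CPM in the control mice and 37.5, 43.9, 37.8 and 31.5 CPM at 6.0 mg/kg-day. Psme2 was at 27.5, 25.9, 23.9 and 23.4 CPM at 0.03, 24.9, 23.8, 24.6 and 26.4 CPM at 0.3 and 33.1, 29.1, 35.1 and 28.2 CPM at 3.0 mg/kg-day. The controls overlapped the treated mice, and Psme2 had a change of 0.31 ± 0.13 (adjusted p = 0.0829). Psme3, the nuclear activator, was at 54.5, 48.1, 54.6 and 51.2 CPM in the control mice and 38.6, 42.9, 65.4 and 46.9 CPM at 6.0 mg/kg-day. The remaining Psme3 values were 54.8, 61.7, 60.2 and 58.2 CPM at 0.03, 54.8, 50.7, 63.5 and 56.2 CPM at 0.3 and 45.9, 45.1, 58.5 and 47.4 CPM at 3.0 mg/kg-day. At 6.0 mg/kg-day 3 of the 4 mice were below the controls and library 23 was above them. The Psme3 change was -0.10 ± 0.14 (adjusted p = 0.628). Psme4, the PA200 activator, was at 165, 148, 247 and 174 CPM in the control mice and 167, 171, 269 and 134 CPM at 6.0 mg/kg-day. Psme4 otherwise was at 138, 155, 226 and 154 CPM at 0.03, 159, 153, 232 and 178 CPM at 0.3 and 154, 141, 267 and 175 CPM at 3.0 mg/kg-day. The third library was the highest in each group, and the remaining mice overlapped, with a change of 0.01 ± 0.23 (adjusted p = 0.974) whose sign turned under other settings. Pomp, a chaperone of core assembly, was at 47.1, 50.8, 20.0 and 34.7 CPM in the control mice and 52.2, 65.9, 24.3 and 54.4 CPM at 6.0 mg/kg-day. Pomp in the other groups was at 38.5, 37.1, 23.4 and 31.1 CPM at 0.03, 36.1, 27.2, 18.6 and 30.1 CPM at 0.3 and 48.3, 53.3, 22.0 and 44.7 CPM at 3.0 mg/kg-day. The third library was the lowest of each group, and the change of 0.36 ± 0.31 did not pass (adjusted p = 0.443), whereas it did without the 5 libraries that stood apart.

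**Figure D4:**
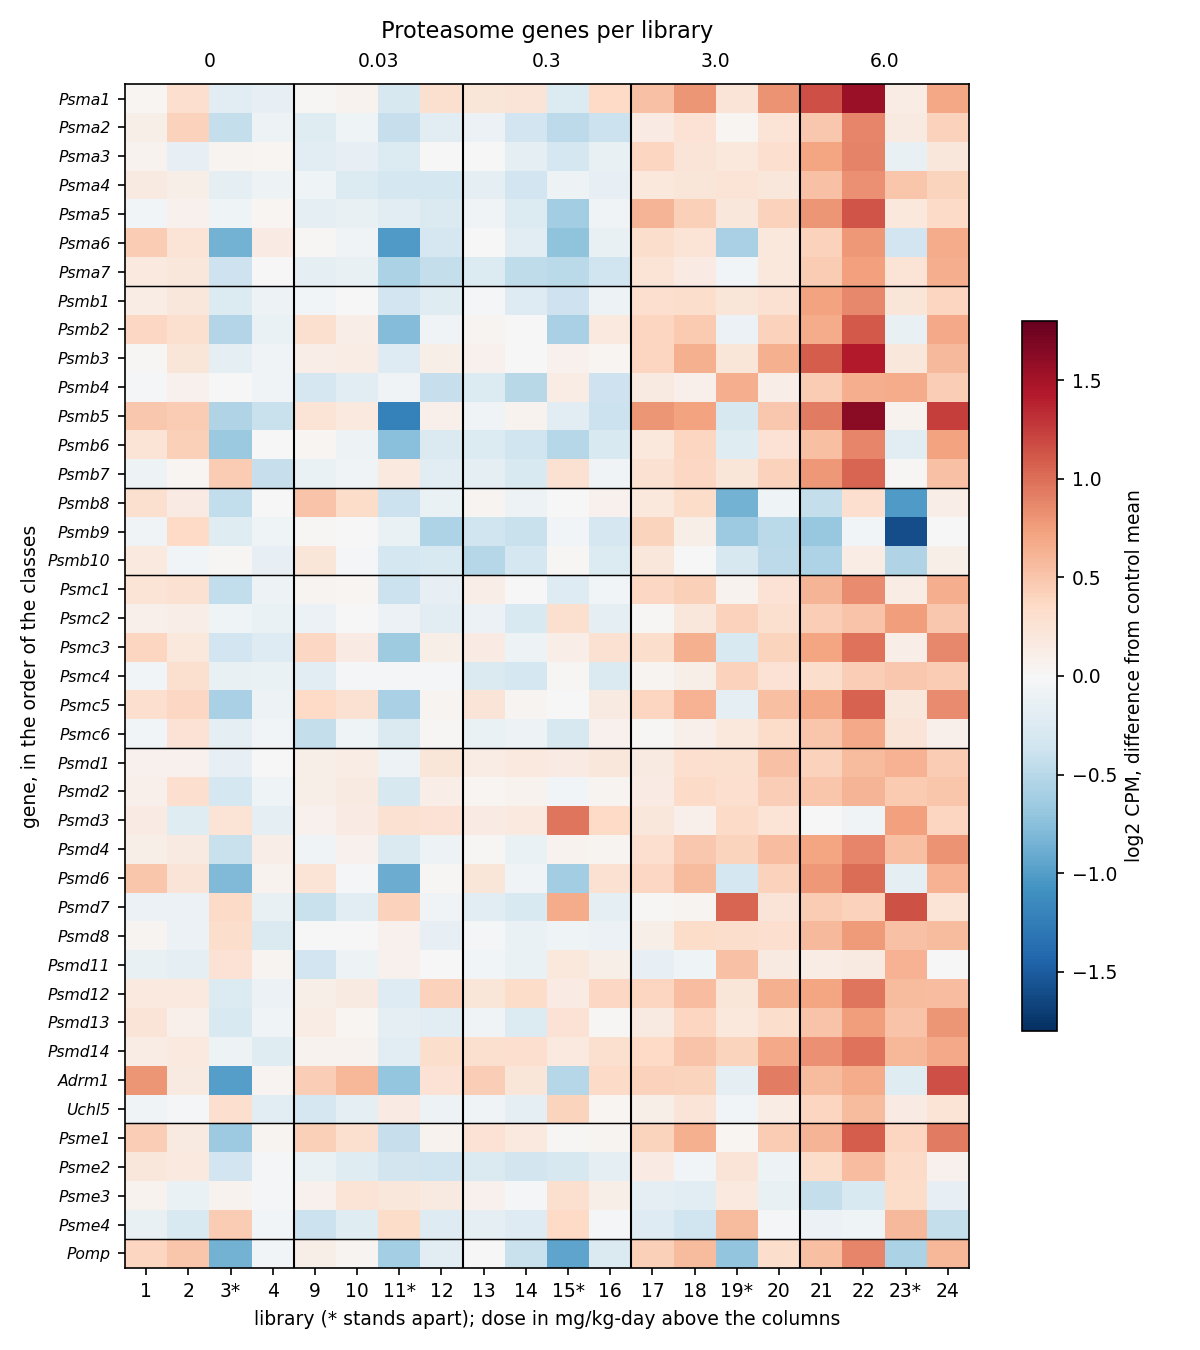
Log2 CPM of the 41 proteasome genes (rows, by class) in the 20 libraries (columns, by dose in mg/kg-day), as the difference from the control mean of the gene; asterisks mark the libraries that stood apart. Red fills most 20S and 19S rows in libraries 21, 22 and 24, while library 23 holds the lowest value of its group for 26 of the 41 genes.

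Below the highest dose the changes were smaller. At 3.0 mg/kg-day 1 gene rose and 0 fell, against 3.18% and 1.43% of all tested genes. An unadjusted p under 0.05 by edgeR was found for 9 of the 41, against 2180 of all 15197 tested genes. The median log2 fold change at this dose was 0.27 over the 20S core, with 14 of 14 genes above 0. Over the 19S cap it was 0.26, with 19 of 19 above 0, and over all tested genes -0.02. Genes of a class were measured in the same libraries and are not independent observations. In 10 of the 41 genes the mice at 3.0 mg/kg-day were each above the controls, against 5.55% of all tested genes. Other settings gave 0 to 7 risen genes there: 0 with the groups fitted alone (2.69% of all tested genes rose), 4 without the 5 libraries that stood apart (3.98%) and 7 with a term for them (5.59%). Psmd14 was among the genes called in the last pair of fits. Its call at 3.0 mg/kg-day ended without control library 3 or 4, or without library 18 or 20, each of which left 0 risen genes.

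At 0.3 and 0.03 mg/kg-day 0 of the 41 genes passed by edgeR in either direction, against 0.138% risen and 0.151% fallen of all tested genes at 0.3 mg/kg-day and 0% and 0% at 0.03 mg/kg-day. DESeq2 and limma-voom also called 0. An unadjusted p under 0.05 was found for 4 genes at 0.3 and 3 at 0.03 mg/kg-day by edgeR. DESeq2 gave 5 and 3, and limma-voom 4 and 2. Over all 15197 tested genes the counts were 1301 and 565 by edgeR, 1379 and 601 by DESeq2, and 1309 and 587 by limma-voom. At 0.3 mg/kg-day the edgeR share of the proteasome genes was therefore near that of all tested genes. The 20S core lay mostly below control at these doses, in 12 of 14 genes at each of them, with a median log2 fold change of -0.21 at 0.3 and -0.17 at 0.03 mg/kg-day. The 19S medians were 0.02 and -0.05, and those of all tested genes -0.02 and -0.01. Both comparisons share the same 4 control mice, and the genes of a class were measured in the same libraries, so these counts are not independent observations. At 0.3 mg/kg-day Psma7 had a change of -0.40 ± 0.14 (adjusted p = 0.34) and Psmb6 of -0.40 ± 0.23 (adjusted p = 0.701). Without the 5 libraries that stood apart these were -0.47 and -0.52, with edgeR adjusted p of 0.0489 and 0.0491, so that 2 genes fell (0.601% of all tested genes). With a term for those libraries 1 gene fell, Psma7 (1.09%).

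Over the dose ranks, 28 of the 41 genes rose and 0 fell, against 13.7% and 12.7% of all tested genes. They were the 24 that rose at 6.0 mg/kg-day together with Psmb2, Psmc6, Psmd7 and Uchl5. The steepest slope per rank was 0.26 ± 0.07 for Psmb5 (adjusted p = 0.0137), and the smallest adjusted p was that of Psmd14, 1.21e-05 at a slope of 0.20 ± 0.03. From 3.0 to 6.0 mg/kg-day 0 genes passed by edgeR in either direction (1.03% and 1.06% of all tested genes). An unadjusted edgeR p under 0.05 was found for 10 of the 41, against 2306 of all 15197 tested genes. DESeq2 called 2 after adjustment, Psma4 and Psmd8 (2.34%). The medians of this step were 0.35 over the 20S core and 0.25 over the 19S cap. Without the 5 libraries that stood apart 10 genes rose between these doses (4.55% of all tested genes), namely Psma4, Psma6, Psma7, Psmb3, Psmb4, Psmb6, Psmb7, Psmd4, Psmd8 and Psmd13. With a term for them 5 rose (4.61%). The slope over dose ranks without those libraries rose in 29 genes (17.6%) and fell in 1, Psme3 (15.2%).

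Related genes were counted from 4 lists. Among other proteasome parts and assembly factors, 3 of 11 measured genes rose at 6.0 mg/kg-day and 0 fell, against 11.2% risen and 11.2% fallen of all tested genes, with a list median of 0.43. Psmd5, a chaperone of the 19S base, was at 43.2, 46.5, 55.7 and 45.4 CPM in controls and 95.9, 108, 91.3 and 66.1 CPM at 6.0 mg/kg-day. Each treated mouse was above each control, and Psmd5 rose by 0.92 ± 0.14 (adjusted p = 5.37e-05), where the changes of the 19S cap genes reached at most 0.77. Psmg1, a chaperone of the alpha ring, and Usp14, a deubiquitinase bound to the cap, rose by 0.43 ± 0.14 and 0.41 ± 0.14 (adjusted p = 0.0379 and 0.0367).

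Among 10 regulators of subunit transcription 2 rose and 1 fell, shares near the 11.2% and 11.2% of all tested genes. Nfe2l1, which encodes the factor known to raise proteasome genes when the proteasome is inhibited, was at 99.7, 109, 111 and 89.1 CPM in controls and 80.0, 88.0, 160.3 and 123 CPM at 6.0 mg/kg-day. The treated mice lay on both sides of the controls (0.15 ± 0.19, adjusted p = 0.624). Nfe2l2, encoding the oxidant-responsive factor NRF2, was at 60.2, 58.4, 108 and 72.1 CPM in controls and 101, 98.7, 198 and 105 CPM at 6.0 mg/kg-day. Library 3 lay within the treated range, and Nfe2l2 rose by 0.75 ± 0.25 (adjusted p = 0.0392). Ngly1, the glycanase that acts on the Nfe2l1 product, rose by 0.30 ± 0.10 (adjusted p = 0.0357), and Stat3, a cytokine-activated factor, had a log2 fold change of -0.73 ± 0.13 (adjusted p = 0.000368).

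In the list of ubiquitin supply and delivery, 2 of 16 genes rose and 1 fell, also near the shares over all tested genes (11.2% each way). Ufd1 and Vcp, partners that extract ubiquitinated proteins for degradation, rose by 0.73 ± 0.21 and 0.38 ± 0.13 (adjusted p = 0.0148 and 0.0451), and Bag6, a chaperone of misplaced membrane proteins, fell, with a change of -0.52 ± 0.15 (adjusted p = 0.0143). In the list of class I antigen presentation and interferon genes, whose regulation the immunoproteasome shares, 0 of 17 rose and 2 fell, where 11.2% of all tested genes rose and 11.2% fell, so the fallen count is near the background. The list median was -0.26. H2-K1, a class I heavy chain, was at 397, 355, 376 and 384 CPM in controls and 304, 268, 265 and 307 CPM at 6.0 mg/kg-day. Each treated mouse was below each control, and H2-K1 had a change of -0.40 ± 0.11 (adjusted p = 0.0105). Tap2, a subunit of the peptide transporter, had a change of -0.57 ± 0.17 (adjusted p = 0.0224).

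Exons of 11 of the 41 genes overlap another annotated gene, 10 of them one on the opposite strand. Of the genes described, these include Psma4, Psma5, Psmb5, Psmb7, Psmb8, Psmb9 and Psme1. Psmb5, Psmb6 and Psmb7 also have annotated pseudogenes of their name, and how shared reads were assigned is not given in the sources, so their levels are less certain.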

How the data were processed

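RNA of 20 livers was sequenced over 4 lanes each, so the labels list 80 lane samples. The deposited table holds a column per library and a row per gene, whose unit was read from the values to be expected counts (58.0% whole). Per the submitters' processing notes, Partek and the build GRCm38.p5 were used. Not given in the sources used here are the aligner, counting method, strand setting and annotation. Columns were joined to dose groups by the library number in the titles, whose replicates are individual mice per the labels.

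Expected counts were rounded. filterByExpr removed 6906 of the 22103 rows for low counts, totals were scaled with TMM factors, and all 20 libraries were fitted together with edgeR 4.0.16 (R 4.3.3; quasi-likelihood test, a mean per group, 15 residual degrees of freedom, Benjamini-Hochberg adjustment over 15197 genes, threshold 0.05). The SE was derived from the log2 fold change and its F value (size over root F). A separate fit had a slope on dose rank. Ratios of gene pairs were tested by exact two-sided permutation (the share of relabelings with an absolute difference at least as large). Alternatives were DESeq2 1.42.0, limma-voom (limma 3.58.1), DESeq2-type size factors, unscaled totals, no filter, only the groups compared and leaving out each library. Leaving out the 5 libraries that stood apart, and a term for them, were added after seeing the data.

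In 5 draws of simulated counts for 6.0 mg/kg-day against control (14801 to 14826 genes), edgeR recovered 52 to 64 of 100 genes changed by 2-fold and 8 to 16 of 100 changed by 1.5-fold, and called 0 to 7 unchanged genes. DESeq2 recovered 60 to 72 and 20 to 32, and called 11 to 26 unchanged genes. Only these sets of 100 genes were changed, while 11.2% of all tested genes rose and 11.2% fell in the data. With fewer changed genes the adjustment is stricter, so these shares do not give the power in the data. A GENCODE M21 symbol was found for 20992 rows (95%), and coordinates come from it. The 41 genes, the related lists and the rules for printing values were chosen with earlier results of these data known. Values in each library are printed for the 3 members of each class that ranked first by adjusted p at the highest dose, for the immunoproteasome, activator, maturation and catalytic genes, for Adrm1 and Uchl5, and for any member that passed at a lower dose. Of each related list at most 4 passing genes are named, with Nfe2l1 and Nfe2l2 always.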

Additional observations from a re-analysis of the deposited data

Results flagged for a closer look

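In 8 of the 125 sets of 4 mice (25 genes with values in each library, 5 groups) 1 library lay far from the other 3 by Dixon's criterion, which chance alone meets in about 1 of 20 sets. Of the 8, 6 were libraries that stood apart in their overall profile. Library 11 at 0.03 mg/kg-day was low for Psmb3 (81.4 CPM, next value 102 CPM) and for Psmb5 (4.97 CPM, next 12.3 CPM). Library 19 at 3.0 mg/kg-day was high for Psmb4 (174 CPM, next 123 CPM) and for Psme3 (58.5 CPM, next 47.4 CPM). The control library 3 was low for Psmd4 (59.6 CPM, next 84.9 CPM), and library 15 at 0.3 mg/kg-day was low for Psmd14 (79.9 CPM, next 86.5 CPM). Outside those libraries, library 9 at 0.03 mg/kg-day was low for Psmc4 (59.98 CPM, next 67.1 CPM) and library 17 at 3.0 mg/kg-day was low for Psmd8 (52.2 CPM, next 60.004 CPM). Of these, the value of library 3 touches the 6.0 mg/kg-day comparison of Psmd4, which passed without it.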

How the results depend on the processing

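The counts at 6.0 mg/kg-day kept their direction under each alternative run, and 0 genes fell at that dose in any of them. The 24 risen genes were 11 with the groups fitted alone, 22 with limma-voom, 26 with DESeq2, 32 without the 5 libraries that stood apart, 34 with a term for them, and 16 (without library 22) to 27 (without library 23) when 1 mouse was left out. The 1 risen gene at 3.0 mg/kg-day was 2 with DESeq2-type size factors and with limma-voom, 3 with unscaled totals, 4 with DESeq2 and without the 5 libraries, 7 with the term, 0 with the groups fitted alone, and 0 to 1 when 1 mouse was left out. From 3.0 to 6.0 mg/kg-day the 0 risen genes became 2 with DESeq2, 5 with the term, 10 without the 5 libraries and 0 to 2 when 1 mouse was left out. At 0.3 mg/kg-day 1 gene fell with the term (Psma7) and 2 without the 5 libraries. Over the dose ranks 19 to 30 rose when 1 mouse was left out, and without the 5 libraries 1 fell (Psme3). The ratio differences for Psmb8/Psmb5 and Psmb9/Psmb6 were -1.24 and -0.81 without the 5 libraries, where 3 against 3 mice cannot pass. When 1 mouse was left out they ran from -1.33 to -1.09 and from -1.18 to -0.92, and Psmb10/Psmb7 from -0.96 (without control library 3) to -0.63. With 3 against 4 mice the smallest exact p is 0.0286 by absolute difference, as used here, and 0.0571 by doubling 1 tail, so no call is drawn from these. The change of Psmb8 ran from -0.40 to 0.0014 (without library 23) when 1 mouse was left out. That of Psme4 was -0.0096 with limma-voom, -0.0037 with the term, -0.026 without the 5 libraries and -0.22 (without library 23) to 0.19 when 1 mouse was left out. The cause of these shifts was not tested. No paired analysis was possible because the groups share no replicate numbers in the labels. Most changes of 1.5-fold were not recovered in simulated counts with 4 mice a group. Far fewer genes were changed there than passed at 6.0 mg/kg-day, so the recovered share does not measure the power of the fits above.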

Other observations

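Within the 6.0 mg/kg-day group, library 22 held the highest value for 29 of the 41 proteasome genes and library 23 the lowest for 26, where library 22 was the highest for 25.7% and library 23 the lowest for 33.1% of all tested genes. The summed level of the 20S core ran from 1037 CPM in library 23 to 1869.6 CPM in library 22, while the sum of the 19S cap ran from 2001 CPM in library 21 to 2219 CPM in library 22. The narrower 19S sum does not mean less spread in its single genes, since these differed in opposite directions. Between the libraries that stood apart and the rest, the log2 difference ran from -1.01 to 0.75 over the 19S genes and from -0.89 to 0.29 over the 20S genes. The immunoproteasome sum was 31.7 CPM in library 22 and 15.2 CPM in library 23.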
